A study of Mus musculus with 6 samples.

Results

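Collagen genes were described in GC-2 spd(ts) cells, a mouse cell line that the labels derive from spermatocytes, after exposure to bisphenol A (BPA), a monomer of polycarbonate plastics. The members were chosen by name: every gene of the mRNA table whose symbol reads Col, a type number, a and a chain number. The rule found 34 of the 22127 genes listed. Of these, 10 encode fibrillar collagens, 6 encode the basement membrane collagen type IV, and 18 are other collagens. Cells were held without serum for 12 h. The BPA culture then received 120 µM BPA, dissolved in DMSO and diluted in medium with 10% serum, for 48 h. The control culture received the same medium with 0.1% DMSO, and the final DMSO content of the BPA culture was not stated. RNA of each culture was divided for mRNA, miRNA and circular RNA (circRNA) sequencing, with 1 library per group and kind of RNA. There is therefore no replicate spread, and no test between the conditions was possible. All comparisons below are between these libraries, with intervals that cover counting error only.

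Collagens are extracellular proteins in which 3 chains wind into a helix, and glycine must recur at the first place of each Gly-X-Y repeat for the chains to pack. Fibrillar collagens form the tension-bearing fibrils of skin, bone and tendon, type IV collagen forms the network of basement membranes, and the remaining types cover fibril surfaces, form beaded filaments or span the cell membrane. In the testis, type IV collagen lies in the basement membrane of the seminiferous tubules, and fibrillar collagen is made mainly by peritubular and interstitial cells.

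The repeat can be read in the coding exons, many of which, in fibrillar collagen genes, are 54 bases long. In the GENCODE M21 annotation of GRCm38, 272 of 589 coding exons of the 10 listed fibrillar genes had this length, between 41.2% and 54.1% of the exons of each gene. In type IV genes it was 12 of 296, and in the other collagens 94 of 760. Among 14536 other genes, 0.464% of coding exons were 54 bases long. Such an exon is shown for 3 abundant fibrillar chains, Col1a2 (coding exon 8, chr6:4515481-4515534, plus strand), Col5a1 (coding exon 15, chr2:27965251-27965304, plus strand) and Col5a2 (coding exon 6, chr1:45434892-45434945, minus strand), to show what makes a gene a collagen. Each is the first 54-base coding exon of its gene that begins in frame and has a GGN glycine codon at every repeat start. Capitals mark the first codon of each Gly-X-Y repeat, and its form GGN follows from this choice.
Col1a2: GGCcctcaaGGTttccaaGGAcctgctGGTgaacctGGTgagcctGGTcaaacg
Col5a1: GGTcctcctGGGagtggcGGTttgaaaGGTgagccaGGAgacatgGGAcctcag
Col5a2: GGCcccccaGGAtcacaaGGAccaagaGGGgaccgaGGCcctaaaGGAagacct

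Reads above 0 were recovered for 29 of the 34 collagens in the control and for all 34 after BPA. Of all 22127 genes listed, 19887 had reads above 0 in the control and 20590 after BPA. No listed gene lacked reads in both libraries, so any collagen at 0 in the control had to be above 0 after BPA. The contrast of 29 and 34 is therefore tied to the listing. The libraries held 32312872 and 33071378 reads, so a gene at 0 reads may still have had up to 0.0928 or 0.0907 CPM, which is reads scaled to a common library size. Well counted collagens, with at least 100 reads in both libraries together, numbered 20: 8 fibrillar, 4 of type IV and 8 others. A further 9 had 10 to 99 reads. The remaining 5, Col22a1, Col25a1, Col14a1, Col26a1 and Col6a4, had under 10 reads and were given no ratio. They are named here only to account for every member. The annotation holds 44 genes of this name pattern, and the other 10 (among them Col9a1, Col9a2 and Col24a1) are not analysed here.

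The labelled cell type was compared with its markers. Of 12 germ cell and spermatocyte markers, 3 were listed, and none reached 10 reads: Ddx4 had 0 reads in the control and 9 in the BPA library, Sycp3 had 6 and 0, and Meioc had 3 and 0. The data therefore go against a spermatocyte identity by these markers. Of 8 fibroblast markers, 7 were listed and all 7 were well counted, while Thy1 is not analysed here. Their levels ranged widely. The filament protein Vim had 51685 and 36449 reads, the growth factor receptor Pdgfrb 1368 and 775, and the collagen Col3a1, the lowest, 80 and 65. Epcam, Cdh1 and Krt18 are not analysed here, and Krt8, the only epithelial marker listed, had 37 and 22 reads. In the macrophage, endothelial and Leydig cell lists, 1 marker each was well counted. These were Cd68 with 147 and 236 reads, Kdr with 127 and 77 and Star with 69 and 90. Of the 5 Sertoli cell markers, all listed, the transcription factors Gata4 and Sox9 had 1959 and 1795 and 389 and 525 reads. Rhox5 had 23 and 38, Amh 10 and 33 and Wt1 8 and 26. All but Gata4 had ratios above 0, beside 8749 of all 16870 genes with at least 10 reads. The interval of Rhox5 (-0.17 to 1.43) includes 0, and Wt1 reached 10 reads only through the BPA library.

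Type I collagen led the family. Col1a1, the α1 chain of type I (chr11:94936224-94953042), had 79234 reads in the control and 39365 after BPA. Col1a2, its α2 chain (chr6:4504814-4541544), had 41750 and 21120. The BPA library was lower for both, at 46.0% and 46.8% of the control after scaling. The log2 ratio of BPA over control, from the deposited values with a pseudocount of 1, was -1.12 for Col1a1 (95% interval -1.14 to -1.10) and -1.09 for Col1a2 (-1.12 to -1.07). In bulk RNA, fewer cells that make collagen and less collagen RNA per cell cannot be told apart. All 7 listed fibroblast markers also had ratios below 0, beside 49% of all well counted genes, with a median of -0.62 and a range of -0.93 to -0.24. Their intervals lay wholly below 0 for 6 of the 7, beside 32.2% of those genes. That list includes the collagen Col3a1, and its part in the collagen ratios was not tested.

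**Figure D1:**
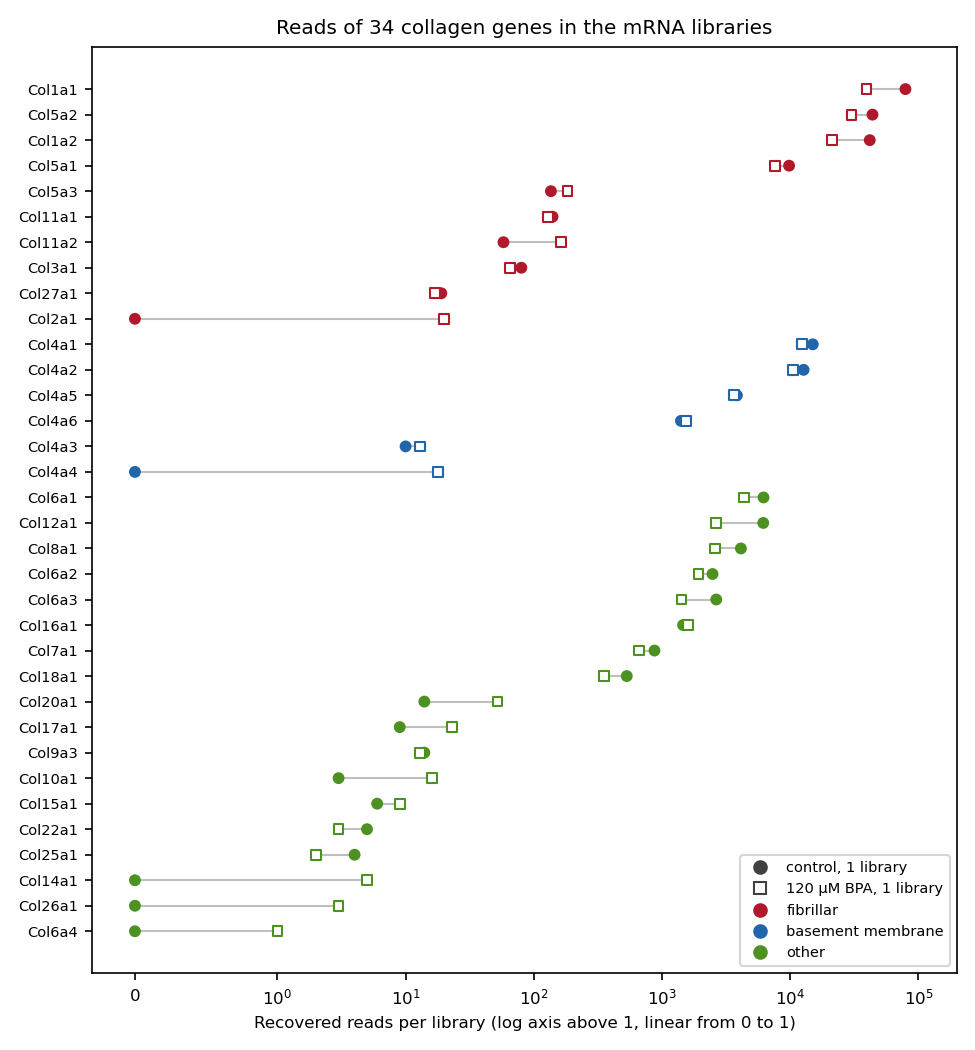
Recovered reads of each of the 34 collagen genes (rows, grouped by class and ordered by reads) in the control library (filled circles) and the BPA library (open squares), on an axis that is logarithmic above 1 read. The abundant genes of each class lie left of their control value or close to it, and 5 genes stood at 0 reads in the control library.

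Across the family, the abundant collagens were mostly lower in the BPA library. Of the 29 with at least 10 reads, 4 were at least 2-fold lower and 6 at least 2-fold higher. Over all 16870 genes with at least 10 reads, 4.61% were at least 2-fold lower and 6.88% higher. Counting intervals lay wholly below 0 for 14 of the 29 and wholly above for 6, beside 26.5% and 28.2% of those genes, and 18 of the 29 ratios were below 0, beside 48.1%. Among the 20 well counted collagens, 4 were at least 2-fold lower and 1 higher, beside 1.54% and 2.48% of 12359 well counted genes. Their ratios were below 0 in 16 of 20, against 49% of all well counted genes. Intervals lay wholly below 0 for 14 and wholly above for 1, beside 32.2% and 32.8% of those genes. The median ratio was -0.48 for the 20 well counted collagens and 0.0067 for all well counted genes.

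The ratios were also set out by read depth. All 7 collagens with at least 10000 reads were below 0, with intervals wholly below 0, and 2 of them were at least 2-fold lower and none higher. At that depth 71.3% of all 1370 genes were below 0 and 64.1% had intervals wholly below 0 (22.7% above). Of those genes 0.803% were at least 2-fold lower and 1.02% higher, and their median was -0.13, against -0.61 for the 7 collagens. With 10 to 99 reads, 2 of 9 collagens were below 0, beside 45.7% of all genes in that range, 5 were at least 2-fold higher, beside 18.9%, and none was 2-fold lower, beside 13%. Intervals in that range lay wholly above 0 for 5 collagens and below for none, beside 15.7% and 10.7%. Col2a1, Col4a4, Col10a1 and Col17a1 had under 10 reads in the control and passed the minimum of 10 through their BPA reads. Their ratios above 0 are therefore tied to the filter and are no support for a direction. The plot of all genes shows the collagens among genes of the same depth.

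**Figure D2:**
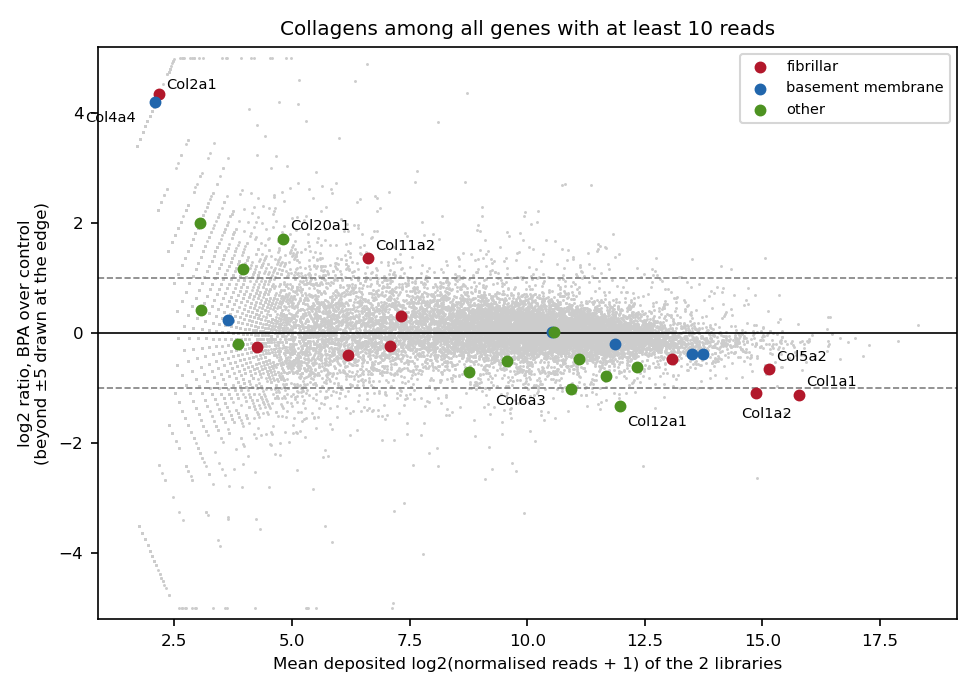
Log2 ratio of BPA over control (vertical axis, values beyond 5 in size drawn at the edge) against the mean deposited log2 value of the libraries (horizontal axis) for all genes with at least 10 reads (grey) and for collagens (coloured by class). Col1a1 and Col1a2 sit below the dashed 2-fold line at the high end, and the collagens with a ratio above 1 have few reads.

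Collagen genes took 0.720% of all mRNA reads in the control library (95% exact binomial interval 0.717% to 0.723%) and 0.431% in the BPA library (0.429% to 0.433%). The composition also differed. Type I chains made up 52.0% of collagen reads in the control and 42.4% in the BPA library. The fibrillar share was 75.3% and 69.3%, the type IV share 14.2% and 19.7%, and that of the other collagens 10.5% and 11.0%.

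The classes had different medians. Well counted fibrillar collagens had a median ratio of -0.44, with 2 of 8 at least 2-fold lower and 1 higher. Without the type I chains, the median of the other 6 was -0.32 and none was 2-fold lower. Well counted type IV genes had a median of -0.29, with none of 4 past 2-fold in either direction. Other collagens had a median of -0.66, with 2 of 8 at least 2-fold lower and none higher. With the minimum at 10 reads the medians were -0.33 for 10 fibrillar genes, -0.091 for 6 type IV genes and -0.48 for 13 others. No difference between classes was tested.

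Type V collagen joins type I in mixed fibrils and sets their diameter. Col5a2, its α2 chain (chr1:45374321-45503282), had 43819 reads in the control and 30021 in the BPA library, 63.4% of the control after scaling and a ratio of -0.66 (-0.68 to -0.64). Col5a1, the α1 chain (chr2:27886425-28039514), had 9803 and 7617 reads, a ratio of -0.48 (-0.52 to -0.43). Both lay below the control, but by less than the type I chains, and their intervals do not overlap those of Col1a1 and Col1a2. The minor chain Col5a3 had 136 and 183 reads, and the interval of its ratio, 0.31 (-0.011 to 0.65), includes 0. In RPKM, which divides reads by library size and by the length of the longest transcript, Col5a2 stood at 205 in the control and 137 in the BPA library, and Col1a2 at 242 and 119. By this level Col5a2 ranked after Col1a1 and Col1a2 in the control and between them in the BPA library. This change of order rests on the length used. By reads alone Col5a2 lay between Col1a1 and Col1a2 in both libraries, with Col1a2 at 41750 and 21120.

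The fibrillar genes with few reads behaved unevenly. Col3a1, the type III chain of elastic tissues, had 80 and 65 reads. Its ratio of -0.41 had an interval of -0.91 to 0.079. Col11a1, a chain of the cartilage fibril collagen type XI, had 140 and 129 reads, and its ratio of -0.23 (-0.59 to 0.13) also includes 0. Col11a2, its partner chain (chr17:34039437-34066685), was the exception, with 58 reads in the control and 163 in the BPA library. Its ratio of 1.36 (0.94 to 1.84) was the only well counted collagen ratio above 1. Col2a1, the main collagen of cartilage, had 0 and 20 reads, 6.17-fold higher with 3 reads put in place of the 0. Its log2 interval began at 2.19, which is below that fold. Col27a1, outside the rule for named genes and given to complete the class, had 19 and 17.

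**Figure D3:**
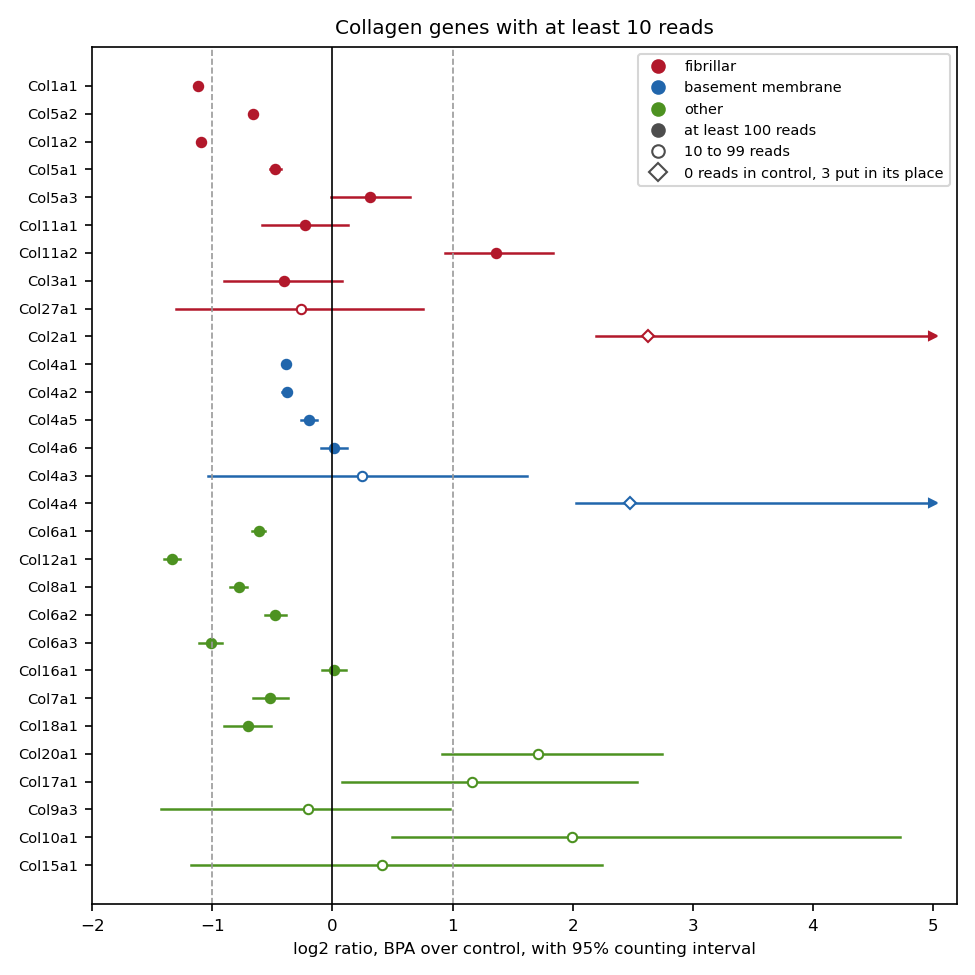
Log2 ratio of BPA over control (points) with 95% counting intervals (lines) for the 29 collagens with at least 10 reads, grouped by class, with dashed lines at 2-fold. Diamonds mark Col2a1 and Col4a4, which had 0 reads in the control and are drawn with 3 reads in its place. Most filled points, the well counted genes, lie left of 0.

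Type IV genes lie in head-to-head pairs. Col4a1 (chr8:11198423-11312826, minus strand) and Col4a2 (chr8:11312805-11449287, plus strand) encode the chains of the common basement membrane network, and their annotated exons overlap by 22 bases on opposite strands. Col4a1 had 14993 reads in the control and 12366 in the BPA library, and Col4a2 had 12722 and 10572. Both were modestly lower in the BPA library, with ratios of -0.39 (-0.42 to -0.36) and -0.38 (-0.42 to -0.34) that overlap each other. The start regions of this pair are printed because the chains had like ratios. They run from 250 bases before to 50 bases after the start site and come from RefSeq (GRCm38.p6), at chr8:11312777-11313076 (minus strand) and chr8:11312555-11312854 (plus strand). Capitals mark CCAAT or its reverse complement ATTGG, the letters of the CCAAT box.
Col4a1: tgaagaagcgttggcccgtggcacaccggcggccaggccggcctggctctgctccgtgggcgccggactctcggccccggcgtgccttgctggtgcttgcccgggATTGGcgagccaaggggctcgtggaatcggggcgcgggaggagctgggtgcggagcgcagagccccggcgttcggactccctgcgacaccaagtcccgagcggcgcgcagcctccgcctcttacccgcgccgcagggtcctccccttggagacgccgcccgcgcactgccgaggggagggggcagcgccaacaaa
Col4a2: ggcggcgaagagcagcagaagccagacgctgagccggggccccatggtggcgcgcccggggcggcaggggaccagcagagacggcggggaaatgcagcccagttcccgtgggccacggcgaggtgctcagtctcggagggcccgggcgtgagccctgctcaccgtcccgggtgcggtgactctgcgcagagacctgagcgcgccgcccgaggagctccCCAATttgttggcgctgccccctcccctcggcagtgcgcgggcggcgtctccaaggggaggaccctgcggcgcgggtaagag
These letters were searched on both strands in the start regions of 25 of the 34 members that matched the table by symbol. They occurred in 12 of 27 such windows, against 37.4% of 32851 windows of the same length from all genes. GGGCGG or its reverse complement, the letters of the GC box, occurred in 18 of 27 windows, against 35.7%. TATAAA or its reverse complement occurred in 4 of 27, against 13.6%. Members without a window include Col1a1, Col5a2 and Col12a1, so the counts do not cover the whole family. Col6a2 and Col18a1 each gave more than a single window, and the windows of Col4a1 and Col4a2 overlap in part. A match is a description of the letters only.

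Col4a5 and Col4a6, the chains of the other network (start sites 1309 bases apart on chromosome X), stayed closer to the control. Col4a5 had 3839 and 3623 reads, a ratio of -0.20 (-0.26 to -0.13), and Col4a6 had 1405 and 1531, a ratio of 0.012 (-0.093 to 0.12). The third pair, Col4a3 and Col4a4, which form the mature network of kidney glomeruli with Col4a5, was barely counted. Col4a4 had 0 and 18 reads, 5.55-fold higher with 3 reads in place of the 0, and its log2 interval began at 2.02. Col4a3, given to complete the pair, had 10 and 13. Its start site lies 72 bases from that of Col4a4. An antisense transcript covers 5.65% of the exons of Col4a3, and the sources used here do not say whether counting used strand.

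Outside these classes, Col12a1 had the lowest ratio of all well counted collagens. It encodes a fibril-associated collagen that lies on type I fibrils (chr9:79598991-79718831) and had 6162 reads in the control and 2642 in the BPA library. That was 39.7% of the control after scaling, a ratio of -1.33 (-1.40 to -1.27). Col16a1, another fibril-associated collagen, had 1460 and 1592 reads, a ratio of 0.013 (-0.090 to 0.12), so members of this group differed. Col20a1, of the same group, had 14 and 52 reads, a ratio of 1.71 (0.91 to 2.75), and shares 79 exon bases with a gene model of 169 and 156 reads on the same strand.

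Type VI collagen forms beaded filaments around cells from 3 chains. Col6a1 had 6191 reads in the control and 4368 in the BPA library, with a ratio of -0.61 (-0.67 to -0.56). Col6a2 had 2478 and 1924, with -0.48 (-0.56 to -0.39). Col6a3, the large chain of the filament (chr1:90765923-90843971), had 2650 and 1419. It was the lowest of the type VI chains at -1.01 (-1.11 to -0.92), just past 2-fold, and at -0.93 when scaled by library totals it was not. The 3 chains were all below the control.

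Among the remaining types, Col8a1, a short-chain collagen of vessel walls and the eye, had 4124 and 2593 reads, a ratio of -0.78 (-0.85 to -0.71). Col7a1, which forms the anchoring fibrils below epithelia, had 874 and 660, a ratio of -0.52 (-0.66 to -0.37). Col18a1, whose C-terminal fragment is endostatin, had 531 and 352, a ratio of -0.70 (-0.90 to -0.51). All 3 were lower in the BPA library with intervals clear of 0. Some genes with few reads, which passed the minimum through their BPA reads, pointed the other way. Col10a1, the collagen of hypertrophic cartilage, had 3 and 16 reads with a ratio of 1.99 (0.50 to 4.72), and the membrane-spanning Col17a1 of hemidesmosomes had 9 and 23, with 1.16 (0.076 to 2.54). Col9a3 with 14 and 13 reads and Col15a1 with 6 and 9 complete the members past 10 reads, and their intervals include 0.

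Chains of 1 molecule can be set against each other within a library. By merged exon length, the ratio of Col1a1 to Col1a2 was 3.59 in the control and 3.53 in the BPA library, and by the longest transcript it was 1.71 and 1.68. Type I collagen contains α1 and α2 chains at 2 to 1, and the measured level depends on the length used, since the merged exons of Col1a2 span 12426 bases and its longest transcript 5348. The change between libraries does not depend on length. Col4a1 to Col4a2 was 1.05 and 1.04 by merged exons, and Col5a1 to Col5a2 was 0.253 and 0.287. Type I and the Col4a1 and Col4a2 pair kept nearly the same proportion in both libraries, and type V moved more. Col4a5 to Col4a6, a pair added after its values were seen, was 3.24 (3.05 to 3.45) and 2.81 (2.64 to 2.98), so the other type IV pair also shifted, with intervals that do not overlap. In type VI, Col6a1 to Col6a2 was 4.75 and 4.32, whereas Col6a1 to Col6a3 was 6.38 (6.10 to 6.68) in the control and 8.41 (7.92 to 8.93) in the BPA library. The Col6a3 chain was thus scarcer relative to Col6a1 in the BPA library, and these counting intervals do not overlap.

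The miRNA libraries give another readout of the same RNA. The miR-29 family is known to pair with 3′ UTRs of many collagen mRNAs through its seed. The mature sequences are shown with the seed, bases 2 to 8, in capitals, since the 3 members share it (RefSeq, GRCm38.p6). miR-29a-3p lies at chr6:31062673-31062694 (minus strand), miR-29b-3p at chr1:195037091-195037113 (plus strand) with a second copy at chr6:31063025-31063047 (minus strand), and miR-29c-3p at chr1:195037600-195037621 (plus strand).
mmu-miR-29a-3p: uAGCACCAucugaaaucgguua
mmu-miR-29b-3p: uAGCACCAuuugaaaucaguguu
mmu-miR-29c-3p: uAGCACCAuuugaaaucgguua
The reverse complement TGGTGCT was searched on the transcript strand of annotated 3′ UTRs. It occurred in 22 of 34 collagens (64.7%), against 13.3% of 14354 other genes, with median UTR lengths of 920.5 and 925 bases. By class it was 8 of 10 fibrillar, 6 of 6 type IV and 8 of 18 other collagens. At least 2 matches were found in 10 collagens (29.4%), against 2.03% of other genes. A match in Col1a1 (chr11:94952518-94952545, plus strand), Col5a2 (chr1:45374965-45374992, minus strand), Col4a1 (chr8:11199761-11199788, minus strand) and Col6a3 (chr1:90767411-90767438, minus strand) is shown, with the match in capitals. Among collagens with a match, Col1a1, Col5a2 and Col4a1 had the most reads, and Col6a3 had the lowest ratio of the type VI chains. Genes without a match were passed over, whatever their reads or ratio.
Col1a1: gtggggtgggaaggaatttcTGGTGCTa
Col5a2: tataacttttcttttaatgaTGGTGCTa
Col4a1: cctctgccaccgtcacaacaTGGTGCTa
Col6a3: ctgcacgtgacctgtcaataTGGTGCTa
Col1a2, Col6a1, Col12a1, Col18a1 and Col11a2 were the well counted collagens without a match. The 15 with a match had a median of -0.41 and 2 of them were at least 2-fold lower, and the 5 without had a median of -0.70, with 2 lower and 1 higher. With at least 10 reads the order of the medians was the reverse, -0.32 over 20 collagens with a match and -0.20 over 9 without. No difference between these sets was tested.

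miR-29a-3p had 2838 reads in the control and 8762 in the BPA library, miR-29b-3p had 574 and 1298, and miR-29c-3p had 4 and 34. With TMM scaling, which centres the bulk of miRNAs, their log2 ratios were 0.13 (0.069 to 0.19), -0.32 (-0.46 to -0.17) and 1.44 (0.10 to 3.55). The direction of miR-29b-3p rests on the scaling, since by library totals the ratios were 1.81, 1.36 and 3.12. By those totals the median of all 464 miRNAs with at least 10 reads was 1.70, against 0.019 with TMM. Relative to the other miRNAs, miR-29a-3p was thus slightly higher and miR-29b-3p slightly lower in the BPA library.

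Collagen genes gave few circRNAs, closed RNA rings formed mostly when an exon end is spliced back to an upstream start. Of 9158 listed circles, 9 came from 6 collagen genes, with 6 back-splice events among 12909 in the control library (0.0465%, 95% interval 0.0171% to 0.101%) and 18 among 17586 in the BPA library (0.102%, 0.0607% to 0.162%). The intervals overlap. A circle of Col4a2, with 1 event in the control and 0 in the BPA library, is typed as intronic in the authors' table and the other 8 as exonic. A Col5a1 circle (chr2:27922017-27929541) held 5 of the 6 and 8 of the 18 events. Of the remaining circles, 3 came from Col4a5, and Col1a1 and Col1a2 gave none in either library.

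Genes that modify, fold, trim and crosslink collagen were mostly below the control, and none was past 2-fold when well counted. Of 39 symbols, 33 were listed and 30 well counted, with a median of -0.19. None of the 30 was 2-fold lower or higher, beside 1.54% and 2.48% of all well counted genes, so a count of none is near the background. Ratios were below 0 in 22 of the 30, beside 49% of those genes. The same background shares apply to the well counted genes of the lists that follow. Several processing genes, among them P4hb, Lox and Serpinh1, had over 10000 reads, a depth at which 71.3% of all genes were below 0. Library totals raise every ratio by 0.078, which takes P4hb (-0.066) and P4ha1 to the other side of 0. The lysyl oxidases Loxl2 and Loxl1, which crosslink collagen, stood at -0.82 and -0.66, and Lox, the main crosslinking enzyme, had 30748 and 24675 reads, a ratio of -0.43. Adamts2, which removes the N-propeptide of fibrillar procollagens, stood at -0.65. The collagen chaperone Serpinh1 had 22055 and 20209 reads (-0.24), and the prolyl hydroxylase chain P4ha1 had 8151 and 8421 (-0.065). Colgalt1, which adds galactose to hydroxylysine, had the highest ratio, with 4560 reads in the control and 8778 in the BPA library (0.83).

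Collagen receptors (9 of 12 symbols listed, 6 well counted) had a median of -0.24 with none past 2-fold. The receptor tyrosine kinases of the family stood apart in sign: Ddr1 had 4153 and 2780 reads (-0.69, -0.76 to -0.62) and Ddr2, which binds fibrillar collagen, had 8661 and 12619 (0.43, 0.39 to 0.47). The integrin chains Itgb1 and Itga10 stood at -0.25 and -0.30. Well counted collagen-binding matrix proteins had a median of -0.29 over 11, with 2 at least 2-fold lower. These were Thbs1, an adhesion protein with 72559 and 28649 reads (-1.45), and Fmod, a fibril-binding proteoglycan with 74 and 39 (-1.02). The proteoglycans Bgn and Hspg2 stood at -0.78 and -0.61, Ogn at -0.54 and Matn2 at 0.53.

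Regulators of collagen genes, 20 of them well counted, had a median of -0.11. Over the 21 with at least 10 reads it was -0.034, and 0.044 when scaled by library totals, so the median has no settled sign. The transcription factor Cebpb was the only well counted one past 2-fold, with 483 and 1184 reads (1.18, 1.03 to 1.34). Of the 20 well counted regulators, 11 were below 0 and 9 above. The 4 with the next largest ratios were all lower: Ctgf, a TGF-β target, had 13108 and 7119 reads (-0.99), the signal transducer Smad2 had 2566 and 1404 (-0.98) and the ligand Tgfb2 1547 and 945 (-0.82), and Creb3l1, a factor that drives type I collagen genes in bone, had 1569 and 876 (-0.95). Other TGF-β pathway genes of the list, named after their values were seen, had either sign. The receptor Tgfbr2 stood at -0.65 (-0.70 to -0.60), and the signal transducers Smad3 at -0.56 (-0.65 to -0.47) and Smad4 at -0.44 (-0.51 to -0.36). The ligand Tgfb1 stood at 0.45 (0.22 to 0.69) and the receptor Tgfbr1 at 0.27 (0.16 to 0.38). The intervals of the ligand Tgfb3, -0.19 (-0.39 to 0.0078), and of Smad7, 0.093 (-0.0013 to 0.19), include 0. Of the degradation genes, 5 of 9 symbols were listed. The 4 well counted ones had a median of -0.23. With at least 10 reads, which adds Ctsk at 5 and 11 reads, it was -0.0090, and 0.069 when scaled by library totals. Mmp14, the membrane collagenase, had 6330 and 3798 reads (-0.85), the gelatinase Mmp2 stood at -0.45, Mmp13 at 0.26 and the prolidase Pepd at -0.0090.

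**Figure D4:**
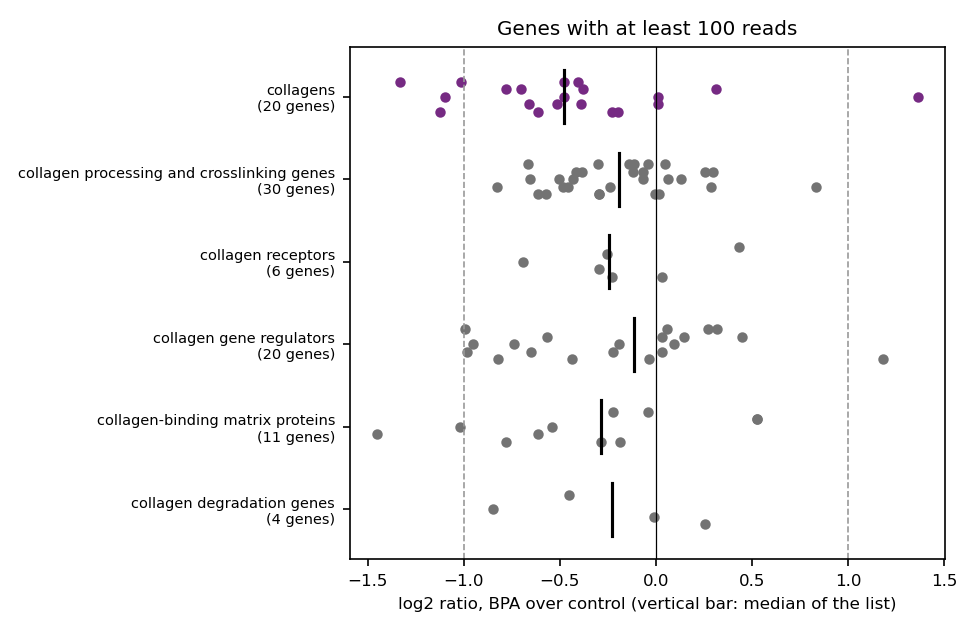
Log2 ratio of BPA over control for each well counted gene (points, spread vertically for visibility) of the collagens and of 5 lists of genes that act on or with them, with the median of each list as a vertical bar and dashed lines at 2-fold. The collagen median of -0.48 lies lowest of the 6 lists shown, and the lists overlap.

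In the authors' deposited table, 1 of the 34 collagens had a p-value under 0.05, Col5a2 at 0.0480, beside 0.664% of all 22127 genes. None of the 34 had an adjusted p-value under 0.05 in the authors' deposited table, beside 0% of all genes. The sources used here do not name the test. With 1 library per group, these p-values cannot measure the spread between cultures.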

How the data were processed

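The members and gene lists were chosen with earlier results of these data known. STAR and StringTie were used for mRNA, STAR for circRNA and Bowtie 1.1.0 for miRNA, on GRCm38/mm10, per the submitters' processing notes. The sources used here name no annotation release, counter or filter. The deposited mRNA and circRNA values are log2(value + 1), made by the authors. All mRNA values gave whole reads (within 0.001) after division by 1 step per library, 1.04 (control) and 0.962 (BPA), the inverse of DESeq2 1.42.0 size factors. A circRNA step of 2 was read as 1 event. The deposited miRNA table holds counts, and TPM that the authors made from them as counts per library total (not used). The counts were scaled here by TMM (edgeR 4.0.16) with 0.5 reads added. p-values were copied from the authors' deposited table.

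Ratios are BPA minus control of the deposited log2 values, with exact conditional binomial (Clopper-Pearson) 95% intervals on reads. The intervals were run on simulated counts with counting error only and no scaling between libraries, so spread beyond counting error was not checked. For fold values, a count of 0 was replaced by 3 reads per library, with no counting error taken for the other library. Genes needed 10 reads in both libraries together, and well counted ones 100. Reads were not shown to be independent molecules, so intervals and limits cover counting error only. Named genes were all well counted collagens, other collagens past 2-fold with at least 10 reads, and, per other list, well counted genes past 2-fold, up to 4 with the largest ratios, Serpinh1, P4ha1, Lox and Ddr2. Lengths, coordinates and UTRs came from GENCODE M21, which held 22036 of 22127 gene IDs. Alternatives were pseudocounts of 0.25 and 5, no filter or 50 reads, library total and TMM scaling, other lengths, and totals without mitochondrial genes.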

Additional observations from a re-analysis of the deposited data

How the results depend on the processing

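With 1 library per group, counting error is the only error that could be given, and variation between cultures was not measured. No paired analysis was possible because each group has 1 library. Of the 20 well counted collagens, all 20 moved by less than their interval with TMM scaling and with pseudocounts of 0.25 and 5. With library totals 10 moved by more, and with the trend in GC content removed, a setting chosen after seeing the data, Col1a1 did, to -1.14. With that trend removed, Col16a1 and Col4a6, which lay near 0, changed sign, to -0.015 and -0.0051. No other well counted collagen changed sign under these settings. The count at least 2-fold lower was 3 with library totals and 4 otherwise.

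With at least 50 reads, 2 collagens were at least 2-fold higher in place of 6, and the background was 2.05% lower and 3.25% higher, whereas without a filter it was 10.8% and 13.5%. Medians with at least 50 reads were -0.29 for type IV, -0.61 for other collagens (-0.34 with no filter), -0.19 for processing genes and -0.23 for degradation genes. With library totals, the median was -0.19 for processing genes, and it turned to 0.044 for regulators and to 0.069 for degradation genes. The collagen share was 0.742% and 0.444% without mitochondrial genes in the total, and 0.474% and 0.312% without Col1a1, a setting chosen after seeing the data.

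By the longest transcript and then with no length, the control and BPA chain ratios were 1.71 and 1.68, then 1.90 and 1.86 (Col1a1 to Col1a2), 1.15 and 1.14, then 1.18 and 1.17 (Col4a1 to Col4a2), 0.176 and 0.200, then 0.224 and 0.254 (Col5a1 to Col5a2), 2.99 and 2.72, then 2.50 and 2.27 (Col6a1 to Col6a2), and 5.76 and 7.59, then 2.34 and 3.08 (Col6a1 to Col6a3). By library totals the ratios were 1.81 for miR-29a-3p, 1.36 for miR-29b-3p, which reversed, and 1.87 for miR-29c-5p. Without division by 2, the circRNA sums were 12 and 36.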

Other observations

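Collagens known from cartilage, a group put together after their values were seen, were not alike. Col2a1 had 0 reads in the control and 20 in the BPA library, Col10a1 had 3 and 16, and Col11a2 had 58 and 163, all higher in the BPA library. Col9a3 had 14 and 13 and Col11a1 had 140 and 129, both near the control. Sox9, the transcription factor that drives cartilage collagens, had 389 and 525 reads, a ratio of 0.32 (0.13 to 0.51), and the cartilage matrix protein Comp had 13 and 21, with an interval that includes 0. Apart from Col11a1 and Col11a2 these collagens had under 100 reads, where 18.9% of all genes with 10 to 99 reads were at least 2-fold higher. Col2a1 and Col10a1 also passed the minimum of 10 reads only through the BPA library.

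The type XI chains also changed in order. Per merged exon length the ratio of Col11a1 to Col11a2 was 1.30 (0.952 to 1.80) in the control and 0.427 (0.336 to 0.541) in the BPA library. By the longest transcript the values were 1.90 and 0.624. The pair was added after its values were seen.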
